A study of Mus musculus with 9 samples.

Results

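Ugcg, the enzyme that places glucose on ceramide, and 9 further enzymes of sphingolipid metabolism were followed in CXCL12-abundant reticular (CAR) cells, bone marrow stromal cells that make the chemokine Cxcl12 and support blood stem cells and B cell precursors. The 10 genes are Sptlc1, Sptlc2, Cers2, Cers5, Cers6, Ugcg, Sgms1, Sgms2, Smpd1 and St3gal5, out of 19938 genes measured, and each has 1 probe set that the platform table pairs with that symbol alone. The members were chosen by measured values of the comparison described here: Ugcg was selected on its G-CSF against PBS difference, among the largest increases, and the others as enzymes of the same pathway with those results known. The values of the 10 genes are therefore given as a description, without p-values.

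The treated mice received granulocyte colony-stimulating factor, or G-CSF, the main growth factor of neutrophils, at 250 µg/kg per day over 5 days (5 arrays), and the control mice received phosphate-buffered saline (PBS) over the same 5 days (4 arrays). All animals carried the genotype Cxcl12+/gfp, so every array comes from cells in which 1 Cxcl12 allele holds a green fluorescent protein, and the sort took lineage-negative cells with a bright signal of it. Age, sex and the number of animals behind an array are not given in the sources used here, so the spread between arrays may hold technical as well as biological spread. The source names of these samples speak of pre-B colonies and, on 4 of the 9 arrays, of an Hspa9 genotype. Titles and protocols say otherwise, and groups follow the titles.

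Sphingolipid synthesis starts in the endoplasmic reticulum, where serine palmitoyltransferase joins serine to a fatty acyl group. Ceramide synthases add another acyl group in a later step on the way to ceramide. Ceramide then goes to sphingomyelin, through the sphingomyelin synthases, or to glucosylceramide, through Ugcg. Glucosylceramide is the root of nearly all mammalian gangliosides and globosides, glycolipids of the outer membrane leaflet that take part in receptor signalling and cell contact.

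Levels are log2 RMA intensities. Differences are log2 level in G-CSF cells minus that in PBS cells, with the standard error (SE) from a limma fit over all 21789 probe sets with a single symbol. Rose and fell are used at a Benjamini-Hochberg adjusted p under 0.05 in that fit. Probe sets bind with different strength, so the levels of different genes are not compared. In sorted bulk cells, a change in the share of a cell type and a change in RNA per cell cannot be told apart.

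The first principal component over these probe sets (34.9% of the variance) split the arrays into array set 1 (G-CSF replicates 1, 2 and 3 and PBS replicates 1 and 2) and array set 2 (G-CSF replicates 4 and 5 and PBS replicates 3 and 4). PBS replicate 3 stood apart, at 56.5 on that component against 22.5 for the next array. The labels name no batch, so this split is one of the values, and differences within each set and without PBS replicate 3 are given below. Cxcl12 was at 11.99 ± 0.07 in G-CSF cells and 12.35 ± 0.11 in PBS cells (SD, n = 5 and 4). All of its G-CSF arrays lay below its PBS arrays, but it did not pass (difference -0.36, SE 0.13, limma adjusted p = 0.287). Lepr, another marker of these cells, was at 11.33 ± 0.26 in G-CSF cells and 11.55 ± 0.21 in PBS cells, with overlapping arrays. In the limma fit 0.743% of all probe sets rose, 0.877% fell, and 2008 of 21789 had an unadjusted p under 0.05. The G-CSF arrays lay wholly above the PBS arrays for 2.18% of probe sets and wholly below for 2.46%. These shares are of single probe sets, not of list means. Of 9 CAR cell markers, 4 fell: Adipoq, Vcam1, Ebf3 and Kitl (limma differences of -1.69, -1.07, -0.66 and -0.74). A further 2, Cxcl12 among them, had an unadjusted p under 0.05. The mean of the 9 ran from 10.26 to 10.32 on the G-CSF arrays and from 10.72 to 10.96 on the PBS arrays, so the groups did not overlap. Erythroid markers fell in 3 of 7 cases (5 had an unadjusted limma p under 0.05), with list means of 4.22 to 4.64 after G-CSF and 4.92 to 5.85 after PBS. B cell markers fell in 1 of 6 (4 had an unadjusted limma p under 0.05), with list means of 4.27 to 4.69 after G-CSF and 4.87 to 5.24 after PBS. Ptprc, the general blood cell marker CD45, was at 7.21 ± 0.43 in G-CSF cells and 6.54 ± 0.26 in PBS cells, with overlapping arrays. In the sorted cells, the mean of 14 neutrophil markers ran from 8.71 to 9.47 on the G-CSF arrays and from 7.85 to 9.39 on the PBS arrays. Of the 14, 1 rose and 9 in all had an unadjusted limma p under 0.05, with a median difference of 0.96. The mean of 7 smooth muscle and pericyte markers ran from 5.90 to 6.27 after G-CSF and from 5.29 to 5.45 after PBS. Of the 7, 2 rose and 4 in all had an unadjusted limma p under 0.05. The 9 macrophage markers averaged 5.29 to 5.61 after G-CSF and 5.47 to 6.08 after PBS, and none passed limma's threshold (2 had an unadjusted p under 0.05).

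Ugcg was the member that rose after G-CSF, and since it was chosen on this comparison the call is no test of it. Its level on the 5 G-CSF arrays was 9.44, 9.13, 9.17, 9.37 and 9.27, against 7.29, 7.36, 5.98 and 6.59 on the 4 PBS arrays (replicates in numerical order). Every G-CSF array lay above every PBS array, and the gap between the groups was wider than the spread within either. The means were 9.28 ± 0.13 in G-CSF cells (SD, n = 5) and 6.81 ± 0.65 in PBS cells (SD, n = 4), a difference of 2.47 (SE 0.25), or 5.54-fold.

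The spread of Ugcg differed between the groups. The G-CSF arrays covered 0.305 log2 units and the PBS arrays 1.38. Of the PBS arrays, those of array set 2 were the low ones, whereas the G-CSF arrays of both sets lay together. The difference was accordingly 1.92 within array set 1 and 3.03 within array set 2, and whether the sets differ was not tested. Leaving out 1 array at a time gave 2.20 (without PBS replicate 3) to 2.66 (without PBS replicate 2). Since Ugcg was chosen on this comparison, these values describe its spread and are no test of it.

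The neutrophil marker mean moved with the treatment, so its values stand beside those of Ugcg. It was 9.44, 8.71, 9.47, 9.30 and 9.14 on the G-CSF arrays, against 7.85, 9.39, 8.15 and 7.85 on the PBS arrays, in the same array order. PBS replicate 2 lay inside the G-CSF range and the other PBS arrays below it. With the neutrophil mean as a covariate, the Ugcg difference was 2.15 (SE 0.33). This covariate comes from the same arrays and moved with the treatment, so the fit cannot separate neutrophil content from treatment. The means of the CAR cell, erythroid, B cell, and smooth muscle and pericyte markers also moved with the treatment. The part of any of these cell types, neutrophils included, in the Ugcg difference was not tested.

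Over all probe sets, 1.62% were called in either direction (353 of 21789), with 0.743% risen and 0.877% fallen. Among the 10 enzymes 1 rose (Ugcg), 0 fell and 9 did not pass, and by unadjusted p under 0.05 in limma the counts were 2 up and 0 down. Over all 21789 probe sets the unadjusted counts were 960 up and 1048 down. The G-CSF arrays lay wholly above the PBS arrays for 2 of the 10, Ugcg and Cers6, against 2.18% of all probe sets, and wholly below for 0, against 2.46%. Since the members were proposed with this comparison in view, nothing is read from these shares. The median difference of the 10 was -0.12, against 0.01 over all probe sets. Of the 10, 8 differed by less than 0.5, as did 20217 of all 21789 probe sets.

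**Figure D1:**
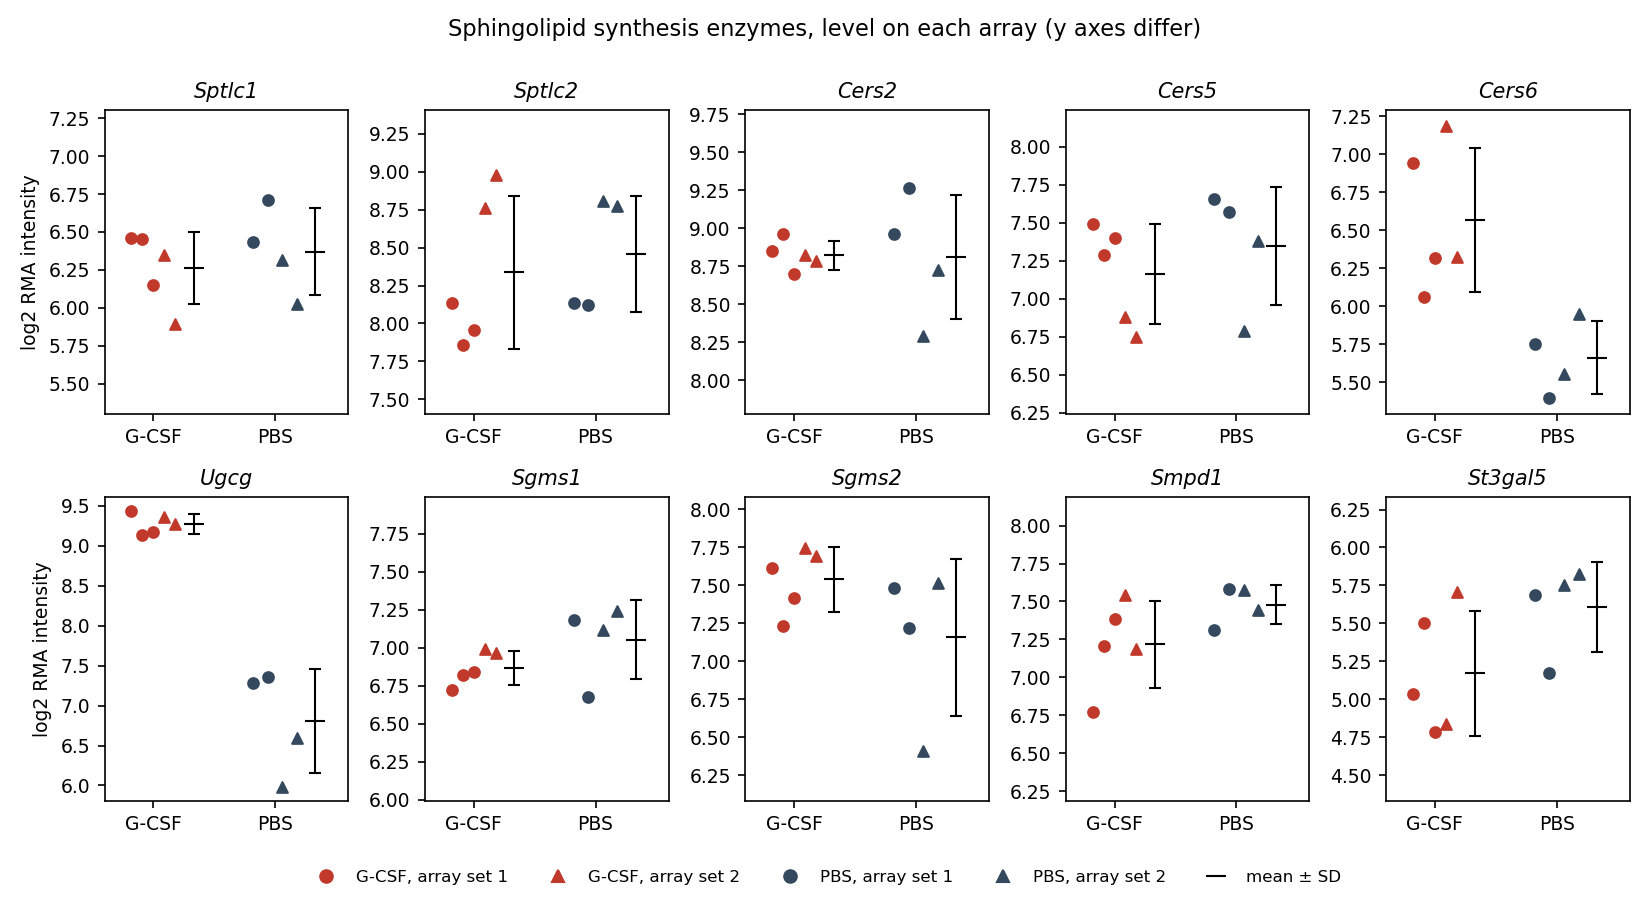
Log2 RMA intensity (y axis, a separate range in each panel) of the 10 enzymes on each array, with G-CSF arrays in red on the left and PBS arrays in dark blue on the right; circles are array set 1, triangles array set 2, and bars the mean ± SD. Ugcg and Cers6 are the panels in which the groups do not overlap, and Ugcg has the wider gap, with means of 9.28 in G-CSF cells and 6.81 in PBS cells.

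Sptlc1 and Sptlc2 encode the main subunits of serine palmitoyltransferase, the first and rate-limiting step of the pathway, and neither passed. Sptlc1, the subunit without the catalytic site, was at 6.46, 6.45, 6.15, 6.35 and 5.90 in G-CSF cells and at 6.43, 6.71, 6.32 and 6.02 in PBS cells. The groups overlapped, and the difference was -0.11 (SE 0.18). Sptlc2, the catalytic subunit, was at 8.13, 7.86, 7.96, 8.76 and 8.98 in G-CSF cells and at 8.13, 8.12, 8.81 and 8.77 in PBS cells. The high arrays in both groups were those of array set 2. The sets were drawn from these same values, so that match is no test of array set or treatment. The Sptlc2 difference was -0.12 (SE 0.26), with -0.14 within set 1 and 0.08 within set 2.

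The ceramide synthases differ in the length of the acyl chain they attach. Cers6, which prefers long-chain acyl groups such as palmitoyl, was at 6.94, 6.06, 6.32, 7.19 and 6.33 in G-CSF cells and at 5.75, 5.40, 5.55 and 5.95 in PBS cells. All 5 G-CSF arrays lay above the PBS arrays, although G-CSF replicate 2 was close to PBS replicate 4. The difference was 0.91 (SE 0.23), or 1.87-fold, and was similar within the sets, at 0.87 in set 1 and 1.01 in set 2. Cers6 did not pass over all probe sets, but did with the array set as a block, when 2.74% of all probe sets were called. The array sets were drawn from these same values, so that pass is no test of Cers6.

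Cers5 also prefers palmitoyl groups, and its arrays did not separate the treatments. It ran from 6.75 to 7.49 in G-CSF cells and from 6.79 to 7.65 in PBS cells, a difference of -0.19 (SE 0.22). Cers2, which makes very-long-chain ceramides, ran from 8.70 to 8.96 in G-CSF cells and from 8.29 to 9.27 in PBS cells. All of its G-CSF arrays lay inside the PBS range. The Cers2 difference was 0.01 (SE 0.18), with opposite signs in the sets, -0.28 in set 1 and 0.30 in set 2.

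On the sphingomyelin side of the branch point, no enzyme passed. Sgms1, the sphingomyelin synthase of the Golgi, was at 6.72, 6.82, 6.84, 6.99 and 6.97 in G-CSF cells and at 7.18, 6.67, 7.12 and 7.24 in PBS cells. All G-CSF arrays lay below all PBS arrays but PBS replicate 2, and the difference was -0.19 (SE 0.15). Sgms2, the synthase found also at the plasma membrane, was at 7.61, 7.23, 7.42, 7.74 and 7.70 in G-CSF cells and at 7.48, 7.22, 6.41 and 7.52 in PBS cells. Here PBS replicate 3 was the low array. The Sgms2 difference was 0.38 (SE 0.22) over all arrays and 0.13 without PBS replicate 3.

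Smpd1, the lysosomal acid sphingomyelinase that returns sphingomyelin to ceramide, was at 6.77, 7.21, 7.38, 7.54 and 7.19 in G-CSF cells and at 7.31, 7.58, 7.58 and 7.44 in PBS cells. The groups overlapped, with 3 of 5 G-CSF arrays below the PBS range, and the difference was -0.26 (SE 0.17). St3gal5, the sialyltransferase that turns lactosylceramide into the first ganglioside, was at 5.04, 5.50, 4.78, 4.84 and 5.71 in G-CSF cells and at 5.68, 5.17, 5.75 and 5.82 in PBS cells. Of its G-CSF arrays 3 lay below the PBS range and the other two inside it. The St3gal5 difference was -0.44 (SE 0.22) over all arrays and 0.01 with the neutrophil mean as a covariate.

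**Figure D2:**
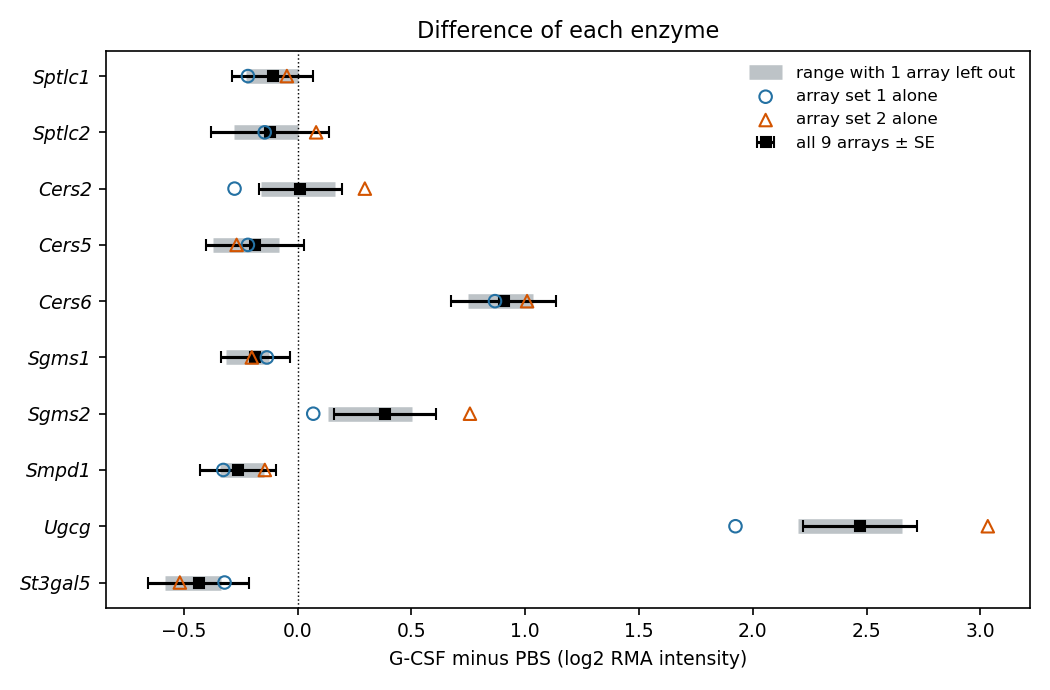
Difference of each enzyme, G-CSF minus PBS in log2 RMA intensity (x axis), with squares and bars for all 9 arrays ± SE, grey bands for the range when 1 array is left out, and open symbols for each array set alone. Ugcg lies at 2.47 and Cers6 at 0.91, and the remaining 8 lie between -0.44 and 0.38.

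The calls among the other sphingolipid genes lay on the route past glucosylceramide. Lactosylceramide is made from glucosylceramide by the galactosyltransferases B4galt5 and B4galt6. A4galt then starts the globo series with globotriaosylceramide, which B3galnt1 extends to globoside, while St3gal5 opens the ganglioside branch. Over 14 measured genes of glycosphingolipid synthesis, listed by role, 2 rose (A4galt and B4galt5), 1 fell (B3galnt1) and 11 did not pass. Over all probe sets 1.62% were called. The list was made with earlier results of these data known, so nothing is read from the share called in it.

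A4galt was at 6.64, 7.11, 6.75, 6.08 and 6.67 in G-CSF cells and at 5.13, 5.63, 4.94 and 4.94 in PBS cells. Every G-CSF array lay above every PBS array. A4galt rose by 1.49 (SE 0.21), or 2.80-fold, with an adjusted p of 0.00339 in limma. The difference was 1.45 in set 1 alone (limma adjusted p = 0.0318) and 1.43 in set 2 alone, where it did not pass (limma adjusted p = 0.0972) and 0.271% of all probe sets were called. A4galt kept its call in all 9 fits with an array omitted, but not with the neutrophil mean as a covariate (1.31, limma adjusted p = 0.115), when 0.34% of all probe sets were called.

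B4galt5 was at 7.28, 7.15, 7.33, 7.15 and 7.33 in G-CSF cells and at 6.66, 6.52, 5.89 and 6.65 in PBS cells. The groups did not overlap, and PBS replicate 3 was the low array. B4galt5 rose by 0.81 (SE 0.17), or 1.76-fold, with a limma adjusted p of 0.0367. Among 9 fits with an array omitted, 8 lost the call, with a limma adjusted p reaching 0.0935 (without G-CSF replicate 5), and the fit without PBS replicate 3 kept it. With the neutrophil covariate it was 0.79 (limma adjusted p = 0.352). B4galt6, its partner in the same step, was at 6.37 ± 0.34 in G-CSF cells and 5.81 ± 0.44 in PBS cells and did not pass (0.56, SE 0.23, limma adjusted p = 0.429).

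B3galnt1, which uses the product of A4galt, went the other way. It was at 7.18, 6.81, 6.77, 6.96 and 6.80 in G-CSF cells and at 8.13, 8.24, 7.38 and 7.65 in PBS cells. All G-CSF arrays lay below all PBS arrays. B3galnt1 fell by 0.95 (SE 0.19), or 1.93-fold, with a limma adjusted p of 0.0268. Among the 9 fits with an array omitted, 6 lost the call, with a limma adjusted p reaching 0.0908 (without PBS replicate 1), and 3 kept it (those without PBS replicate 3, PBS replicate 4 or G-CSF replicate 1). With the neutrophil covariate the difference was -1.20 (limma adjusted p = 0.0883). B4galnt1, the transferase that elongates gangliosides, was at 6.06 ± 0.63 in G-CSF cells and 5.35 ± 0.29 in PBS cells and did not pass (0.71, limma adjusted p = 0.419). B4galnt1 and B4galt6 were added to the text after their values were seen.

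**Figure D3:**
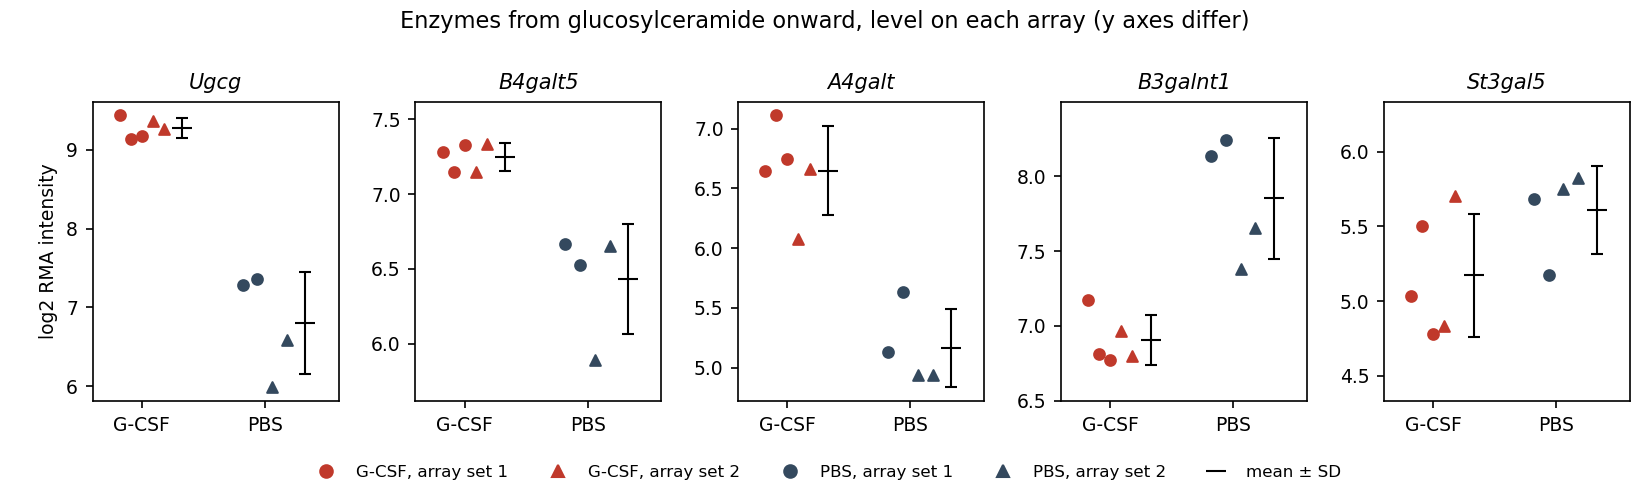
Log2 RMA intensity (y axis, a separate range in each panel) on each array for Ugcg, B4galt5, A4galt, B3galnt1 and St3gal5, with G-CSF arrays in red on the left and PBS arrays in dark blue on the right; circles are array set 1, triangles array set 2, and bars the mean ± SD. The groups are apart with G-CSF higher for Ugcg, B4galt5 and A4galt, apart with G-CSF lower for B3galnt1, and overlapping for St3gal5.

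The DNA just upstream of the 4 changed genes is shown because these genes follow each other along 1 route. The stretches are RefSeq promoter sequence of build GRCm38.p6, read 5′ to 3′ on the strand of the gene and ending at the last base before its annotated start: Ugcg at chr4:59189300-59189506 (plus strand), B4galt5 at chr2:167349179-167349428 (minus), A4galt at chr15:83251730-83251979 (minus) and B3galnt1 at chr3:69598961-69599210 (minus). Capitals mark the GC box, GGGCGG or its reverse complement CCGCCC, and overlapping matches run together.
Ugcg: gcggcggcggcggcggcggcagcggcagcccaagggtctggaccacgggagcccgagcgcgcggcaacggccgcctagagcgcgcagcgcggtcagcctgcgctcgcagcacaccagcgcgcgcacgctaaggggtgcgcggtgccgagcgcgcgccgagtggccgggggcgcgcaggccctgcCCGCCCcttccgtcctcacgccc
B4galt5: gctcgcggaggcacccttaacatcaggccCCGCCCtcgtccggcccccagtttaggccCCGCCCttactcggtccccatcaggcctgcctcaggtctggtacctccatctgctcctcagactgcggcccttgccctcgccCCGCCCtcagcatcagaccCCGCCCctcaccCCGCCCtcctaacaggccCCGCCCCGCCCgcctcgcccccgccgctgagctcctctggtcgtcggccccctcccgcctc
A4galt: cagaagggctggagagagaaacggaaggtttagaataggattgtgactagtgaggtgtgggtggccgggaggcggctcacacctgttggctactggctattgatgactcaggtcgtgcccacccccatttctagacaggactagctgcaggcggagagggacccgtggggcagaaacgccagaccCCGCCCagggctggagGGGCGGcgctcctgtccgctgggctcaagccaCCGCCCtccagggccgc
B3galnt1: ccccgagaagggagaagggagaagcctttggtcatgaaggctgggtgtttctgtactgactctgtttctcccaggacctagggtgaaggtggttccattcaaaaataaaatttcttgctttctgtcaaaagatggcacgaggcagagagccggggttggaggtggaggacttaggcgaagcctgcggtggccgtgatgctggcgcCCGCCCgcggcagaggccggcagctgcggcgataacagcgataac

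The Ugcg stretch is the richest in G and C of the 4, at 80.7%, against 73.2% for B4galt5, 64.0% for A4galt and 57.2% for B3galnt1. GC boxes number 1 in Ugcg (207 bases), and 7 in B4galt5, 3 in A4galt and 1 in B3galnt1 (250 bases each). Of all 32851 RefSeq windows of 300 bases (250 before to 50 after a start), 35.7% hold a GC box on either strand. Each other member except Cers6, none of them called, also has such a window with a GC box, so the box does not set the changed genes apart. None of the 4 genes' windows of that length holds the STAT pattern TTCNNNGAA (8.30% of all windows), the C/EBP pattern TTGCNNAA (10.8%) or the TATA pattern TATAAA (13.6%), each searched on both strands. A missing pattern says only that these letters are not in the window.

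Across 69 further genes of sphingolipid metabolism that were listed by role and measured, 2 rose, 1 fell and 66 did not pass. In the same fit 1.62% of all probe sets were called, and this list too was made with earlier results known. The median difference was 0.01 over the 69 and 0.01 over all probe sets. Of the 69, 60 differed by less than 0.5, as did 20217 of all 21789 probe sets. The count of 3 depended on which arrays were included: it was 1 in 6 of the 9 fits with an array omitted (without PBS replicates 1 or 2 or G-CSF replicates 2, 3, 4 or 5), 2 in another 2 (without PBS replicate 4 or G-CSF replicate 1) and 3 without PBS replicate 3, when 1.46% of all probe sets were called.

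In the role groups outside glycosphingolipid synthesis, limma called none of the genes measured. Over all 21789 probe sets, 2008 had an unadjusted limma p under 0.05. The 12 de novo synthesis genes had differences of -0.32 to 0.20, with 0 at an unadjusted p under 0.05. The smallest p among them was that of Ormdl1, a brake on serine palmitoyltransferase, at 5.91 ± 0.19 in G-CSF cells and 6.23 ± 0.32 in PBS cells (difference -0.32, limma adjusted p = 0.676). The 12 degradation genes ranged from -0.11 to 0.19, again with 0 at an unadjusted p under 0.05. There the smallest p belonged to Hexa, a subunit of the hexosaminidase that breaks down gangliosides, at 8.95 ± 0.14 in G-CSF cells and 8.77 ± 0.42 in PBS cells (difference 0.18, limma adjusted p = 0.918).

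Among 10 genes of sphingomyelin turnover and lipid transfer, 1 had an unadjusted p under 0.05 (2008 of 21789 over all probe sets). This was Plekha8, also called FAPP2, a protein that carries glucosylceramide within the Golgi, at 5.15, 5.09, 4.52, 5.37 and 5.51 in G-CSF cells and 5.89, 5.72, 5.79 and 6.07 in PBS cells. No G-CSF array reached the lowest PBS array, with a difference of -0.74 (SE 0.19, limma adjusted p = 0.101). Plekha8 passed with the array set as a block (-0.70, limma adjusted p = 0.0420), when 2.74% of all probe sets were called. That block was drawn from these same values, so the pass adds no support. Among 6 ceramidases and ceramide kinase, 1 reached an unadjusted p under 0.05, Asah2 (neutral ceramidase), at 6.99 ± 0.32 in G-CSF cells and 7.46 ± 0.27 in PBS cells (difference -0.47, limma adjusted p = 0.444).

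Genes of sphingosine 1-phosphate, a signalling lipid derived from ceramide, had no call either. Of 10 genes of its metabolism and transport, 2 had an unadjusted p under 0.05 (2008 of 21789 over all probe sets). Sphk1, the kinase that makes it, had the smallest. Sphk1 was at 8.26, 7.93, 8.05, 8.32 and 8.31 in G-CSF cells and 7.77, 7.41, 7.41 and 7.91 in PBS cells. All G-CSF arrays lay above the PBS arrays, by as little as 0.01 between the closest pair (difference of means 0.55, SE 0.16, limma adjusted p = 0.157). Plpp3, a phosphatase of lipid phosphates, went the other way, at 10.65 ± 0.16 in G-CSF cells and 11.14 ± 0.41 in PBS cells (difference -0.48, limma adjusted p = 0.403). Of the 5 receptors, 2 had an unadjusted p under 0.05, in opposite directions. S1pr3 was at 10.54, 10.75, 10.90, 11.06 and 10.89 in G-CSF cells and 10.48, 10.02, 9.57 and 10.20 in PBS cells, without overlap (difference 0.76, SE 0.19, limma adjusted p = 0.0775). S1pr1 was at 9.28 ± 0.09 in G-CSF cells and 9.78 ± 0.37 in PBS cells, with overlapping arrays (difference -0.51, SE 0.17, limma adjusted p = 0.266). Plpp3 and S1pr1 were added after their values were seen.

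**Figure D4:**
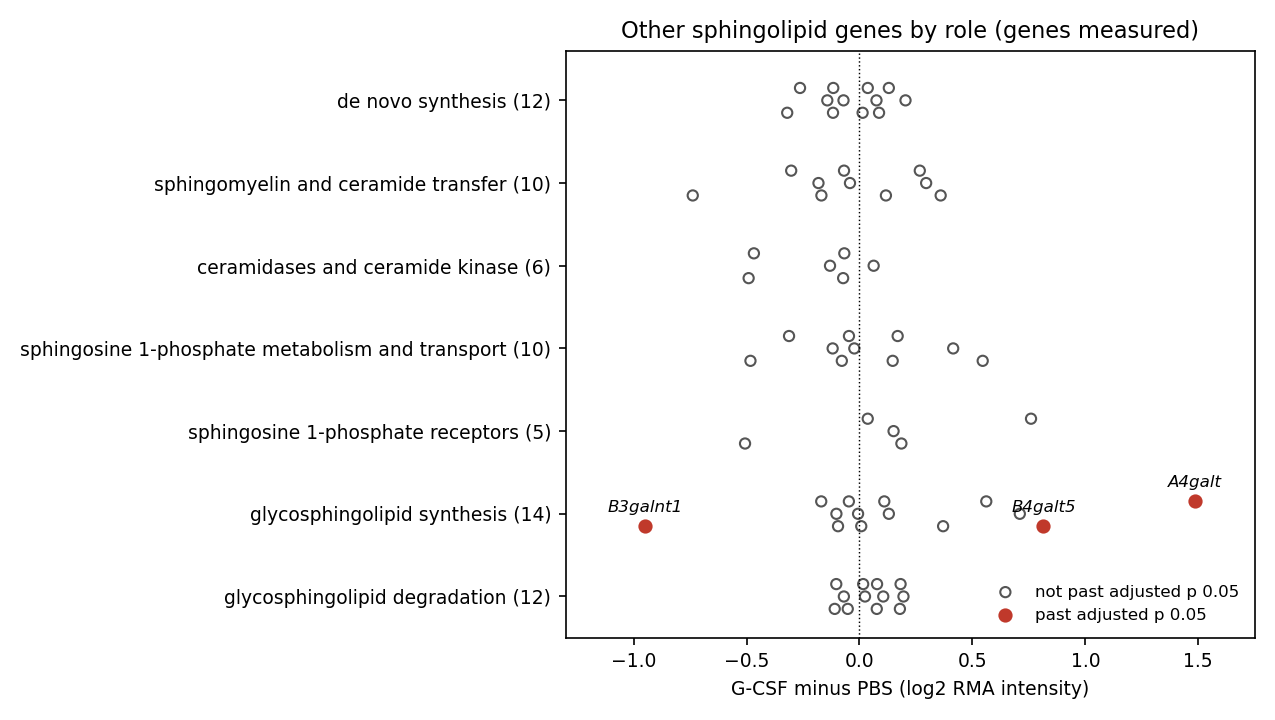
Difference, G-CSF minus PBS in log2 RMA intensity (x axis), of 69 further sphingolipid genes, 1 point a gene, by role (y axis, genes measured in brackets); filled points passed an adjusted p of 0.05 in limma. The filled points, A4galt at 1.49, B4galt5 at 0.81 and B3galnt1 at -0.95, all lie in the glycosphingolipid synthesis row, while the de novo synthesis and degradation rows stay within -0.32 to 0.20.

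The genes with array patterns most like that of Ugcg were found by Pearson's r of the log2 values over the 9 arrays, which share the treatment, the array sets and the normalisation. The 5 highest were Osmr, the oncostatin M receptor chain (r = 0.99), Ifitm1, an interferon-inducible membrane protein (0.99), Plp2, a membrane proteolipid (0.98), Jak2, a cytokine receptor kinase (0.97), and Htra3, a secreted serine protease (0.97). Of these, Osmr was at 10.17 ± 0.08 in G-CSF cells and 9.15 ± 0.19 in PBS cells, and Jak2 at 8.53 ± 0.18 in G-CSF cells and 7.31 ± 0.23 in PBS cells. These values contain the treatment difference itself, on which Ugcg was chosen.

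With each group's mean subtracted, the 5 highest were Gusb (0.98), Txnl1 (0.97), Mgst3 (0.97), Spns1 (0.97) and Alas1 (0.97), none of them among the first 5. The spread of Ugcg that remains lies mostly in the PBS arrays (SD 0.65, against 0.13 in the G-CSF arrays). How far the r of these 5 genes rests on PBS replicate 3 was not tested. Of the other members, Cers2 had the highest r with Ugcg by this measure, at 0.90, and Sgms2 was next at 0.71. PBS replicate 3 was the lowest PBS array for all of Ugcg, Cers2 and Sgms2, and without it the r was 0.71 for Cers2 and -0.02 for Sgms2 (8 arrays). Cers5 followed at 0.66 (0.22 without that array) and Sptlc1 at 0.46 (0.68 without it), and Sgms1 was the lowest, at -0.43.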

How the data were processed

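RNA from sorted cells was amplified with a NuGEN Ovation kit and hybridised to Affymetrix Mouse Gene 1.0 ST arrays, per the labels' protocols. Per the submitters' processing notes, the authors used RMA in Affymetrix Expression Console to make the deposited intensity values; versions, library files and genome build are not given in the sources used here. They lie on a linear scale (1.73 to 15673.1, array medians 34.72 to 37.24), so log2 was taken. RMA gives each array a shared distribution, so differences are relative to other transcripts. Precision is limited by how many arrays there are.

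Of 35553 probe sets, 21789 with a single symbol in the platform table were tested, and 1621 with several and 12143 with none were left out. The fit was limma 3.58.1 in R 4.3.3 (lmFit, eBayes, two-sided, no covariate, 9 arrays, groups from the titles), with Benjamini-Hochberg adjustment over all of them. For genes with several probe sets the brightest was used. Members and gene lists were chosen with earlier results of these data known, and lists are described by counts and medians. Named genes were every member, every other sphingolipid gene past the threshold, the smallest p of each role group without a call, and the 5 genes most like Ugcg by each of the 2 measures. Of the marker lists not in the report, 1 of 4 osteoblast markers rose (3 at an unadjusted limma p under 0.05), and 0 of 7 endothelial markers passed limma (2 at an unadjusted p under 0.05). Tested on simulated data over 21789 probe sets, the fit recovered 6% of log2 changes of 0.5, 56% of 1, 84% of 1.5 and 94% of 2, with 8 false calls.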

Additional observations from a re-analysis of the deposited data

Results flagged for a closer look

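Ormdl1 had a PBS array far from the others, PBS replicate 3 at 6.71 against 6.04 to 6.11 on the other PBS arrays. Hexa had a G-CSF array far from the others, G-CSF replicate 1 at 9.20 against 8.84 to 8.93 on the other G-CSF arrays. These were 2 of 38 groups checked, and chance flags about 1 in 20.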

How the results depend on the processing

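The Ugcg difference ran from 1.92 (array set 1 alone) to 3.03 (array set 2 alone) over 20 alternatives, which is a description, since Ugcg was chosen on this comparison. The count of members called was 1 in all of them but the fit with the array set as a block, which called 2 (Ugcg and Cers6). That count is a description too. The count of all probe sets called, 353 in the report, was 181 with every probe set tested, 180 with the replicate block, 598 with the array set as a block, 202 in set 1 alone, 59 in set 2 alone, 74 with the neutrophil covariate and 210 to 318 with 1 array left out. The count of other sphingolipid genes called, 3 in the report, was 1 with every probe set tested, 1 with the replicate block, 1 to 3 with 1 array left out, and 0 by limma in set 2 alone and with the neutrophil covariate (10 and 8 at an unadjusted p under 0.05). The call that held with every probe set tested and under the replicate block was that of A4galt. Over all 21789 probe sets, 1949 in set 2 alone and 1518 with the neutrophil covariate had an unadjusted limma p under 0.05. The Hexa difference changed sign in set 1 alone (-0.12) and ran from -0.0043 (without PBS replicate 3) to 0.29 (without PBS replicate 1) with 1 array left out. Of 179 values of the members other than Ugcg, 5 moved by more than the spread between arrays. Fits that changed only the variance model or which probe sets were used left each member's difference as it was. Their values could not move, so the share of 179 overstates stability. The causes were not tested.

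Replicate numbers did not pair the arrays, since deviations from the group means correlated at 0.28, 0.14, -0.28 and 0.35 for numbers 1 to 4, and not every array was most like its own number. At this number of arrays, log2 changes of 0.5 were mostly missed in the simulated data, so members without a call are not shown to be unchanged.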
